A study of Mus musculus with 15 samples.

Results

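The miR-29 family was followed through female mouse puberty in a small-RNA sequencing count table of the hypothalamus. Its 7 mature miRNAs, mmu-miR-29a-3p, mmu-miR-29b-3p, mmu-miR-29c-3p, mmu-miR-29a-5p, mmu-miR-29b-1-5p, mmu-miR-29b-2-5p and mmu-miR-29c-5p (written without the mouse prefix from here on), were taken by name from the 1842 miRNAs of the table. All 7 were found, and all 7 were among the 704 miRNAs with enough counts to be tested. The hypothalamus came from female mice of the strain C57BL/6JOlaHsd at postnatal day 14 (PND14, before puberty), day 35 (PND35, during puberty) and day 56 (PND56, after puberty), with 5 libraries at each age. No genetic or drug intervention is named for any group. The labels do not say whether each library came from 1 animal, so p-values measure the spread between these libraries only. Library totals lay between 6722608 and 16153673 counts. The columns of replicates 1 to 3 are named by week and those of replicates 4 and 5 by plain numbers. What separates these naming sets is not stated, and 39.3% of tested miRNAs differed between them at an adjusted p below 0.05 in edgeR.

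A miRNA guides an Argonaute protein to messenger RNAs that pair with its seed, bases 2 to 8 counted from its 5′ end, and so lowers their translation and stability. Each precursor hairpin can yield a mature miRNA from its 5′ side (5p) and from its 3′ side (3p), and usually the arm not loaded into Argonaute is degraded. The 3p miRNAs of the miR-29 family are known regulators of collagens and other extracellular matrix genes, of DNA methyltransferases and TET enzymes, and of pro-apoptotic genes in maturing neurons. The family is known as one whose level is low in the immature brain and high in the mature brain.

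The mature sequences are shown because seed sharing and the few base differences between the 3p members define which values can be set side by side. They are given 5′ to 3′ as in RefSeq (GRCm38.p6), with the seed in capitals, and all 7 members were matched by name.
miR-29a-3p: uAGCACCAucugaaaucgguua
miR-29b-3p: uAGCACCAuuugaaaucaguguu
miR-29c-3p: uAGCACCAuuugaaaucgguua
miR-29a-5p: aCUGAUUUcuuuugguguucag
miR-29b-1-5p: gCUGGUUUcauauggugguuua
miR-29b-2-5p: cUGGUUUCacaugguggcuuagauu
miR-29c-5p: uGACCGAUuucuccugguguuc

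The 3p members shared the seed AGCACCA, which no other mature mouse miRNA of the RefSeq table carried. Counted from the 5′ end, miR-29a-3p and miR-29c-3p differed only by C10U over 22 bases. Between miR-29a-3p and miR-29b-3p the differences were C10U, G18A, U21G and A22U. Reads of miR-29a-3p and miR-29c-3p are therefore told apart by 1 base, and how the authors' counting treated mismatches is not given in the sources used here. Each 5p member had a seed of its own, and miR-29b-2-5p shared UGGUUUC with miR-6338, which was not analysed here. miR-29b-3p ended in AGUGUU, a hexamer known from work on human miR-29b as a nuclear import element. Of 1556 listed miRNAs with a RefSeq sequence, 2 (0.129%) ended in these letters, and the other was miR-92b-5p.

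The family is made from a pair of gene clusters. Mir29a (chr6:31062660-31062747, minus strand) and Mir29b-1 (chr6:31063023-31063093, minus strand) lie 275 bases apart in GRCm38. In the GENCODE annotation Mir29a overlapped no other gene, and Mir29b-1 lay in an exon of the long non-coding RNA Gm27019. Mir29b-2 (chr1:195037040-195037120, plus strand) and Mir29c (chr1:195037547-195037634, plus strand) lie 426 bases apart, both in an exon of the non-coding transcript A330023F24Rik and, on the opposite strand, of Cd46. Mature miR-29b-3p is identical from both clusters, so its counts cannot be divided between them, whereas each miR-29b 5p member belongs to 1 cluster. The 2 hairpins that share this 3p product follow with their mature arms in capitals, 5p first.
Mir29b-1: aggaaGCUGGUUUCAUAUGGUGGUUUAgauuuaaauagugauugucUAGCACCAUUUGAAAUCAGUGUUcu
Mir29b-2: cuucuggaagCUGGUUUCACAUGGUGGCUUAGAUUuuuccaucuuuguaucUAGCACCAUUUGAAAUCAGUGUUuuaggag

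The family's share of the hypothalamic miRNA pool was higher at each later age. Its 7 members together made up 1.87% ± 0.216 of all counts at PND14 (SD, n = 5), 5.78% ± 0.571 at PND35 and 7.87% ± 0.759 at PND56. The lowest library at PND35 (5.19%) lay above the highest at PND14 (2.15%), and the lowest at PND56 (7.06%) above the highest at PND35 (6.59%). Within replicates 1 to 3 the mean shares were 1.83%, 6.14% and 8.23%, and within replicates 4 and 5 they were 1.95%, 5.23% and 7.34%. These are shares of all counts, so they carry no scaling factor. In a bulk tissue, fewer cells of a type and less RNA per cell cannot be told apart.

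Levels are given below as counts per library size of 1000000 (CPM), on library sizes scaled by edgeR's trimmed mean of M-values (TMM). Nearly all of the signal came from the 3p arms. Their summed level was 17994 ± 3345 CPM at PND14, 55386 ± 3336 CPM at PND35 and 85014 ± 9935 CPM at PND56 (SD, n = 5). The summed 5p level was 94.4 ± 12.1, 300 ± 37.3 and 353 ± 29.2 CPM, so that the 5p arms made up 0.532%, 0.537% and 0.415% of the family's CPM at the successive ages.

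miR-29a-3p was the most abundant member on average at PND14 and at PND56. Its level in replicates 1 to 5 was 7138, 6104, 7913, 9053 and 9664 CPM at PND14. At PND35 it was 25748, 25193, 23844, 15357 and 15488 CPM. At PND56 it was 36196, 41220, 39955, 30391 and 27138 CPM. The 3 ages did not overlap, and at PND35 and PND56 both of replicates 4 and 5 lay below all of replicates 1 to 3. By abundance within a library, miR-29a-3p ranked between 23 and 28 at PND14, between 8 and 20 at PND35 and between 4 and 11 at PND56.

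miR-29b-3p, the product of both clusters, had the widest spread among the 3p members at PND14 and at PND35. It stood at 2958, 3830, 5513, 6426 and 8256 CPM in replicates 1 to 5 at PND14. The PND35 libraries had 17205, 20164, 15457, 30431 and 29008 CPM. The PND56 libraries had 18504, 32606, 31882, 41092 and 41229 CPM. Here replicates 4 and 5 were the highest at each age, the opposite of their place for miR-29a-3p at PND35 and PND56, and the PND35 and PND56 ranges overlapped.

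miR-29c-3p, which differs from miR-29a-3p by C10U alone, was the least abundant 3p member on average at each age. Its PND14 libraries had 4443, 4606, 5916, 3949 and 4200 CPM. At PND35 they had 13925, 15196, 13570, 8103 and 8242 CPM. At PND56 they had 17299, 23213, 20635, 11751 and 11958 CPM. Replicates 4 and 5 were the lowest at every age, and PND35 and PND56 overlapped while both lay above PND14.

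Among the 5p members miR-29c-5p was the most abundant and the one with the narrowest spread at PND14 relative to its mean. It had 46.9, 55.4, 63.1, 52.0 and 56.4 CPM in replicates 1 to 5 at PND14. At PND35 it had 190.6, 223, 188, 158 and 181 CPM, and at PND56 it had 199, 240, 255, 221 and 192 CPM. PND14 stood apart from the later ages, which overlapped broadly. miR-29b-2-5p lay between 18.6 and 32.0 CPM at PND14, 52.7 and 68.0 CPM at PND35, and 64.5 and 97.8 CPM at PND56. miR-29a-5p lay between 7.69 and 26.3 CPM, 36.0 and 78.0 CPM, and 29.6 and 60.4 CPM at the successive ages. miR-29b-1-5p was near the detection limit. It had 2 to 27 counts in a library, between 0.254 and 0.840 CPM at PND14, 2.00 and 2.69 CPM at PND35, and 2.47 and 2.95 CPM at PND56, where 3 counts are worth 0.186 to 0.446 unscaled CPM.

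**Figure D1:**
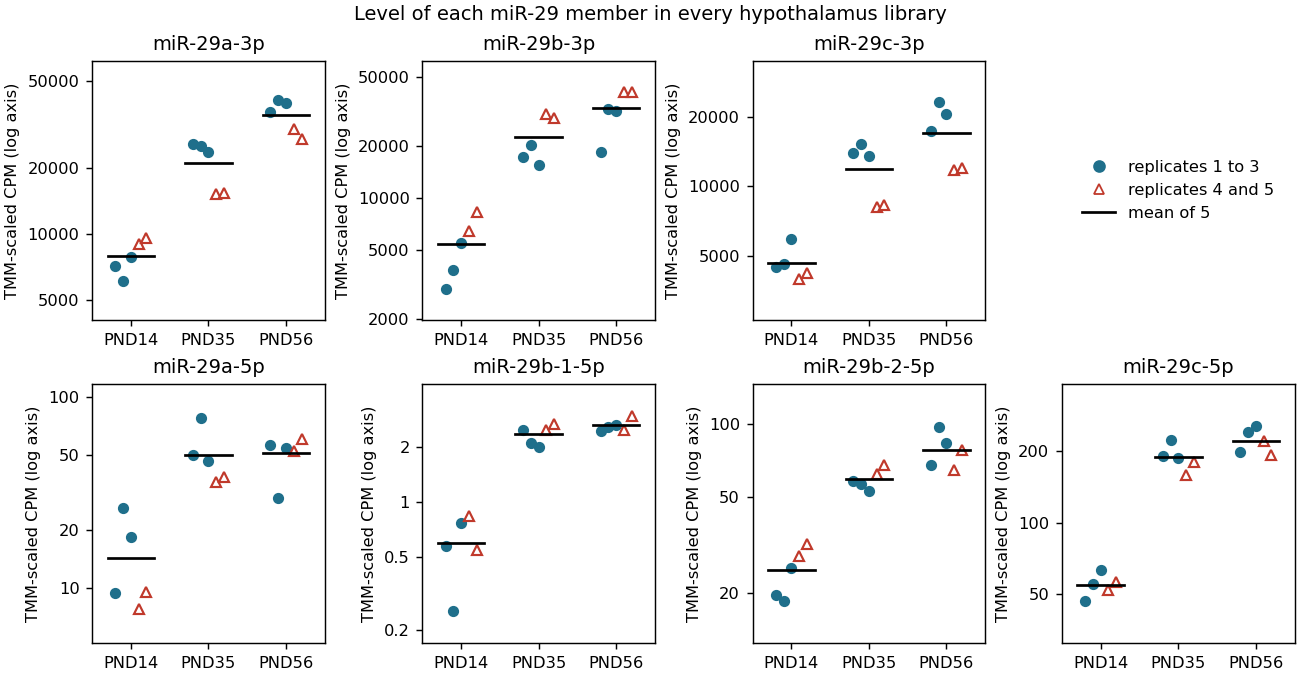
Each panel plots 1 member, with age on the x axis and TMM-scaled CPM on a log y axis. Filled circles are replicates 1 to 3, open triangles replicates 4 and 5, and bars the mean of 5 libraries. In all 7 panels every PND35 library lies above every PND14 library, and for miR-29a-3p alone every PND56 library also lies above every PND35 library.

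In each library every 3p member lay above every 5p member. At PND14 the 3p means were 7975 ± 1434 CPM for miR-29a-3p, 5396 ± 2101 CPM for miR-29b-3p and 4623 ± 765 CPM for miR-29c-3p, and the range of miR-29b-3p overlapped those of both others. At PND35 miR-29b-3p (22453 ± 6862 CPM) and miR-29a-3p (21126 ± 5253 CPM) overlapped, and all libraries of miR-29c-3p (11807 ± 3373 CPM) lay below both. At PND56 miR-29a-3p (34980 ± 6077 CPM) and miR-29b-3p (33063 ± 9283 CPM) overlapped again, and miR-29c-3p (16971 ± 5121 CPM) overlapped miR-29b-3p but not miR-29a-3p. The 5p order was miR-29c-5p, miR-29b-2-5p, miR-29a-5p and miR-29b-1-5p at each age, in which miR-29b-2-5p and miR-29a-5p overlapped at PND14 and PND35. How efficiently each sequence is captured into a library was not measured, which limits comparisons of level between members.

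From PND14 to PND35, the step from before puberty into puberty, all 7 members rose (edgeR quasi-likelihood test with Benjamini-Hochberg adjustment over 704 miRNAs). Over all tested miRNAs 13.9% rose at this threshold, 16.2% fell and 30.1% changed in either direction. The members' median log2 fold change was 1.78, beside -0.025 over all tested miRNAs. All 7 members had every PND35 library above every PND14 library, a pattern that 7.95% of tested miRNAs showed.

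The largest rise in this interval among the members was that of miR-29b-3p, with a log2 fold change of 2.07 ± 0.18 (SE), or 4.19-fold (edgeR adjusted p = 3.01e-07). It was the fifth largest log2 fold change among the 704. The smallest rise was that of miR-29b-2-5p, the 5p product of 1 of its 2 hairpins, at 1.27 ± 0.17 (edgeR adjusted p = 3.43e-05). Of the other 3p members, miR-29a-3p rose by 1.36 ± 0.17 on the log2 scale and miR-29c-3p by 1.30 ± 0.13. miR-29b-1-5p rose by 1.89 ± 0.24, miR-29a-5p by 1.83 ± 0.31 and miR-29c-5p by 1.78 ± 0.13. miR-29c-5p had the smallest adjusted p of the members (8.94e-08 in edgeR).

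Both naming sets gave this rise when fitted alone. In replicates 1 to 3 the members' log2 fold changes lay between 1.42 and 2.13, and in replicates 4 and 5 between 0.70 and 2.11, and all 7 passed the edgeR threshold in each. The share of all tested miRNAs called in each separate fit is not given here. The value of 0.70 belonged to miR-29a-3p, whose log2 fold change was 1.85 in replicates 1 to 3. For this member the interaction of age and naming set had an edgeR adjusted p of 0.00481, in a fit where 25.6% of all tested miRNAs were called. At PND14 its replicates 4 and 5 were the highest libraries, at PND35 the lowest.

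**Figure D2:**
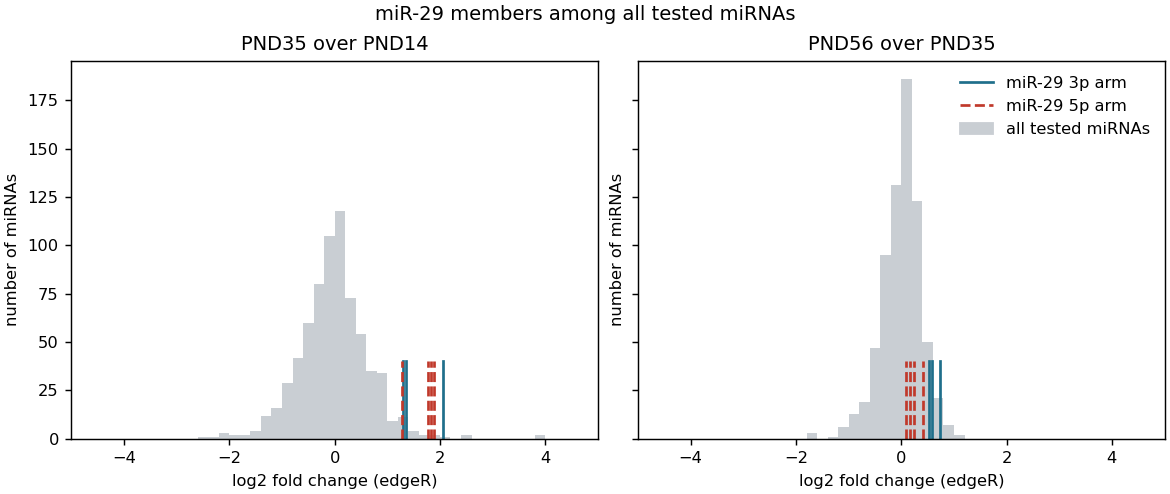
Histograms of the log2 fold changes of all 704 tested miRNAs (y axis, number of miRNAs) for PND35 over PND14 (left) and PND56 over PND35 (right), with vertical lines at the miR-29 3p members (solid) and 5p members (dashed). The members lie between 1.27 and 2.07 in the first interval and between 0.091 and 0.74 in the second.

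From PND35 to PND56, from puberty to adulthood, 2 of the 7 members rose. miR-29a-3p rose by 0.74 ± 0.17 on the log2 scale, or 1.67-fold (edgeR adjusted p = 0.0246), and miR-29c-3p by 0.53 ± 0.12, or 1.44-fold (edgeR adjusted p = 0.0312). Over all tested miRNAs 1.70% rose, 2.70% fell and 4.40% changed in either direction. The log2 fold changes of the members that did not pass were 0.58 ± 0.17 for miR-29b-3p (edgeR adjusted p = 0.0788), 0.41 ± 0.17 for miR-29b-2-5p, 0.24 ± 0.13 for miR-29c-5p, 0.17 ± 0.21 for miR-29b-1-5p and 0.091 ± 0.30 for miR-29a-5p. The members' median was 0.41, beside 0.042 over all tested miRNAs. Only for miR-29a-3p, among the 7, did every PND56 library lie above every PND35 library, as it did for 1.85% of tested miRNAs.

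These calls turned on single libraries and on the naming sets. The call of miR-29a-3p was lost in 7 of 15 edgeR fits that each left out 1 library (PND35 replicates 1, 3, 4 and 5, and PND56 replicates 2, 3 and 4), with adjusted p up to 0.141. That of miR-29c-3p was lost in 11 of 15 (all of PND35 and PND56 except PND35 replicate 2 and PND56 replicate 1, and PND14 replicates 1, 3 and 4), with adjusted p up to 0.147. Without PND56 replicate 1, miR-29b-3p passed with a log2 fold change of 0.68 (edgeR adjusted p = 0.0305). In replicates 1 to 3 alone miR-29a-3p had 0.59 (edgeR adjusted p = 0.0600) and miR-29c-3p 0.46 (edgeR adjusted p = 0.198), while in replicates 4 and 5 alone 4 members passed. The share of all tested miRNAs called in these separate fits is not given here, so the 4 cannot be set against it. With age as the only term in edgeR the adjusted p was 0.0718 for miR-29a-3p and 0.429 for miR-29c-3p.

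Over the whole span from PND14 to PND56, all 7 members rose in edgeR, where 22.0% of all tested miRNAs rose, 22.7% fell and 44.7% changed in either direction. Their log2 fold changes lay between 1.68 and 2.65, with a median of 2.01, beside -0.012 over all tested miRNAs. miR-29b-3p again had the largest value of the members, 2.65 ± 0.18 or 6.27-fold, and miR-29a-3p followed with 2.10 ± 0.17. All 7 members had every PND56 library above every PND14 library, as 9.66% of tested miRNAs did. This comparison shares its libraries with the other intervals and is not separate evidence.

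Both intervals lasted 21 days, so the fold changes can be set against each other. The changes share the PND35 libraries and are not independent. The second change minus the first was below 0 on the log2 scale for all 7 members, while it was above 0 for 52.1% of all tested miRNAs. For 3 of 7 members the difference passed the edgeR threshold. That difference was called, with a smaller second change, for 1.99% of all tested miRNAs and in either direction for 3.41%. miR-29c-5p had -1.54 ± 0.22 (edgeR adjusted p = 9.04e-04), miR-29b-3p -1.49 ± 0.29 (edgeR adjusted p = 0.00576) and miR-29b-1-5p -1.73 ± 0.38 (edgeR adjusted p = 0.0137). The call of miR-29b-1-5p, which rests on few counts, was lost without PND35 replicate 5 (edgeR adjusted p = 0.0622). In replicates 1 to 3 alone miR-29b-3p had -1.54 (edgeR adjusted p = 0.0905) and miR-29b-1-5p -1.79 (edgeR adjusted p = 0.141), and in replicates 4 and 5 alone miR-29b-1-5p had -1.75 (edgeR adjusted p = 0.0562). The difference for miR-29c-5p passed in each set. That of miR-29b-3p had an edgeR adjusted p of 0.186 with age as the only term. The smallest difference among the members was that of miR-29a-3p, -0.63 ± 0.29 (edgeR adjusted p = 0.276), with -1.26 in replicates 1 to 3 and 0.18 in replicates 4 and 5.

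**Figure D3:**
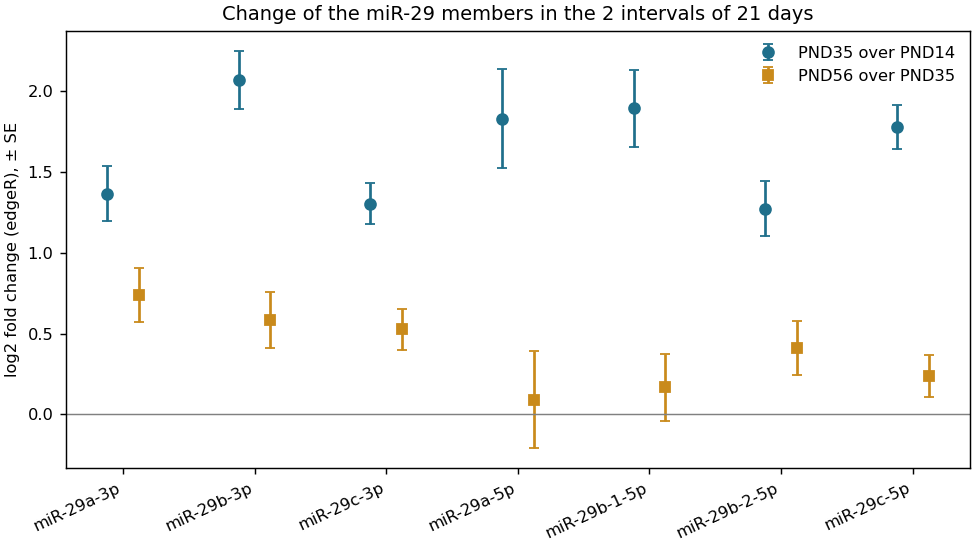
Log2 fold changes with standard errors derived from the edgeR F test (y axis) for each member (x axis) in the first interval (circles) and the second (squares). All 7 first-interval values lie above all 7 second-interval values, whose lowest, that of miR-29a-5p, is 0.091.

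The make-up of the 3p pool, molecules with a common seed, differed between the naming sets. At PND35 miR-29b-3p made up 30.2%, 33.3% and 29.2% of the summed 3p CPM in replicates 1 to 3, and 56.5% and 55.0% in replicates 4 and 5. The ratio of miR-29b-3p to miR-29a-3p at that age had a mean of 0.706 ± 0.0827 in replicates 1 to 3 (SD, n = 3), against 1.93 ± 0.0768 in replicates 4 and 5 (SD, n = 2), with no overlap. At PND56 it was 0.700 ± 0.164 and 1.44 ± 0.118, and at PND14 0.579 ± 0.147 and 0.782 ± 0.102. miR-29a-3p was therefore the leading 3p member in all 9 libraries of replicates 1 to 3, and miR-29b-3p in the 4 libraries of replicates 4 and 5 at PND35 and PND56. Averaged over age, miR-29b-3p was lower in replicates 1 to 3 by 0.72 on the log2 scale (edgeR adjusted p = 8.50e-04) and miR-29c-3p higher by 0.62 (edgeR adjusted p = 3.38e-04). The other 5 members did not pass for this difference, which was called for 39.3% of all tested miRNAs.

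**Figure D4:**
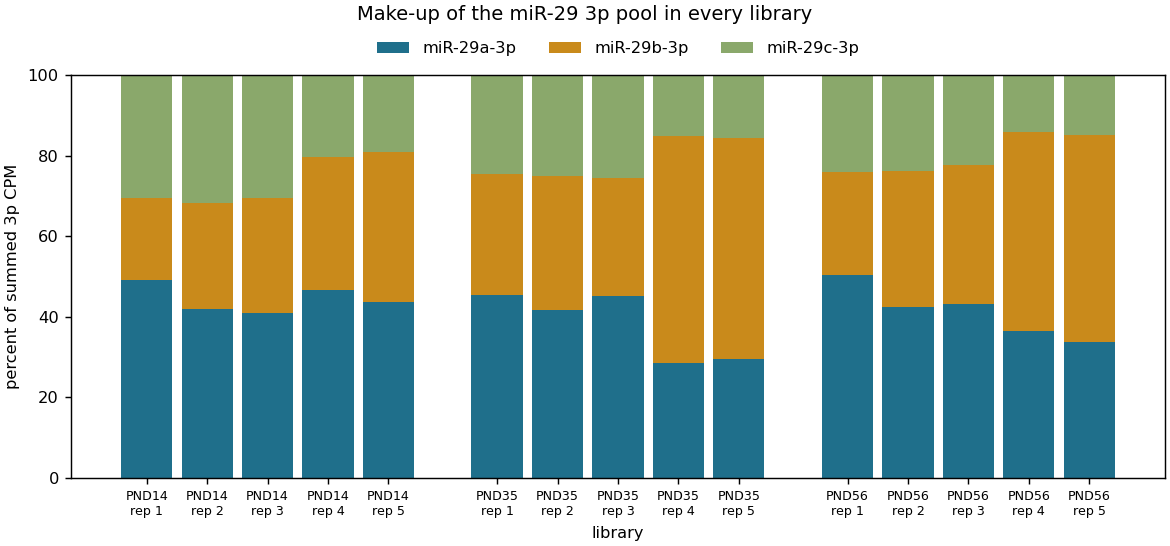
Stacked bars give the percent of the summed 3p CPM (y axis) that each 3p member holds in each of the 15 libraries (x axis). In replicates 4 and 5 miR-29b-3p holds 33.1% to 37.3% at PND14 and 49.4% to 56.5% at the later ages, against 20.3% to 34.5% in replicates 1 to 3 over all ages.

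Whether members moved by unequal amounts was tested on 5 ratios between members over 3 comparisons with exact two-sided permutation tests, 5 libraries against 5. None of these 15 tests passed after Benjamini-Hochberg adjustment, and 1 had an unadjusted p below 0.05. That was the ratio of miR-29b-1-5p to miR-29b-2-5p, which represent the 2 clusters, and it was 0.0241 ± 0.00797 at PND14 and 0.0395 ± 0.00220 at PND35 (SD, n = 5) with no overlap. The difference was 0.68 on the log2 scale, 0.63 in replicates 1 to 3 and 0.76 in replicates 4 and 5, and no split of 5 against 5 can give less than its exact p of 0.00794 (adjusted p = 0.119). It rests on 2 to 13 counts of miR-29b-1-5p in the PND14 libraries. The ratio of miR-29b-3p to miR-29c-3p had a log2 difference of 0.78 between the same ages (exact p = 0.159, adjusted p = 0.304), with 0.62 in replicates 1 to 3 and 1.02 in replicates 4 and 5. With ages permuted only within the naming sets, 5 of the 15 tests had an exact p below 0.05 and none passed after adjustment. This permutation cannot give less than 0.0167, which limits what could pass. The ratio of miR-29b-3p to miR-29c-3p reached that floor from PND14 to PND35 and from PND14 to PND56 (adjusted p = 0.0625 each). So did miR-29b-1-5p to miR-29b-2-5p from PND14 to PND35 and from PND35 to PND56 (adjusted p = 0.0625 each). From PND14 to PND35 the ratio of miR-29b-3p to miR-29a-3p had a difference of 0.71, with 0.31 and 1.31 in the respective sets. Its exact p was 0.183 with 5 libraries against 5 (adjusted p = 0.304), and 0.0667 with ages permuted within the sets (adjusted p = 0.139).

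The arms of a hairpin are excised together, so the ratio of 5p to 3p within a library compares how much of each remains. For miR-29b-2 this ratio fell from PND14 to PND35. The PND14 libraries had 6.60, 4.85, 4.60, 4.41 and 3.88 counts of miR-29b-2-5p per 1000 of miR-29b-3p in replicates 1 to 5. At PND35 they had 3.38, 2.81, 3.41, 2.03 and 2.34, and at PND56 3.65, 3.00, 2.62, 1.57 and 1.89. PND14 did not overlap the later ages. The log2 ratio fell by 0.81 ± 0.17 to PND35 (SE, limma adjusted p = 0.00434 over 262 hairpins) and by 0.98 ± 0.17 to PND56 (limma adjusted p = 7.98e-04). The denominator includes miR-29b-3p from the other cluster, so the ratio does not isolate 1 hairpin.

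For miR-29c the ratio moved the other way. It was 12.0 ± 1.35 counts of miR-29c-5p per 1000 of miR-29c-3p at PND14, 16.7 ± 3.76 at PND35 and 13.8 ± 3.52 at PND56 (SD, n = 5). The log2 ratio rose by 0.46 ± 0.14 from PND14 to PND35 (limma adjusted p = 0.0295), with 0.35 (limma adjusted p = 0.246) in replicates 1 to 3 and 0.64 (limma adjusted p = 0.0320) in replicates 4 and 5. The miR-29c call was lost when any PND35 library or PND14 replicate 1, 4 or 5 was left out, with limma adjusted p up to 0.0881. At PND56 its change from PND14 was 0.18 ± 0.14 (limma adjusted p = 0.409).

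These 2 of 4 miR-29 hairpins called from PND14 to PND35 compare with 19.1% of all 262 hairpins, and the 1 of 4 called from PND14 to PND56 with 24.0%. For miR-29b-2 the first change was -0.73 in replicates 1 to 3 (limma adjusted p = 0.0783) and -0.92 in replicates 4 and 5 (limma adjusted p = 0.0154). With age as the only term, the limma adjusted p of the first change was 0.0857 for miR-29b-2 and 0.268 for miR-29c. The changes from PND14 to PND35 were 0.52 ± 0.41 for miR-29a and -0.12 ± 0.25 for miR-29b-1, and neither passed. Replicates 1 to 3 gave -0.070 for miR-29a, against 1.40 in replicates 4 and 5, where it passed (limma adjusted p = 0.00484). Its change from PND14 to PND56 was -0.19 ± 0.41 (limma adjusted p = 0.761), with -1.04 in replicates 1 to 3 (limma adjusted p = 0.159) and 1.10 in replicates 4 and 5 (limma adjusted p = 0.00758). From PND35 to PND56 limma called none of the 262 hairpins (0.00%), with 23 at an unadjusted p below 0.05, none of them a miR-29 hairpin.

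**Figure D5:**
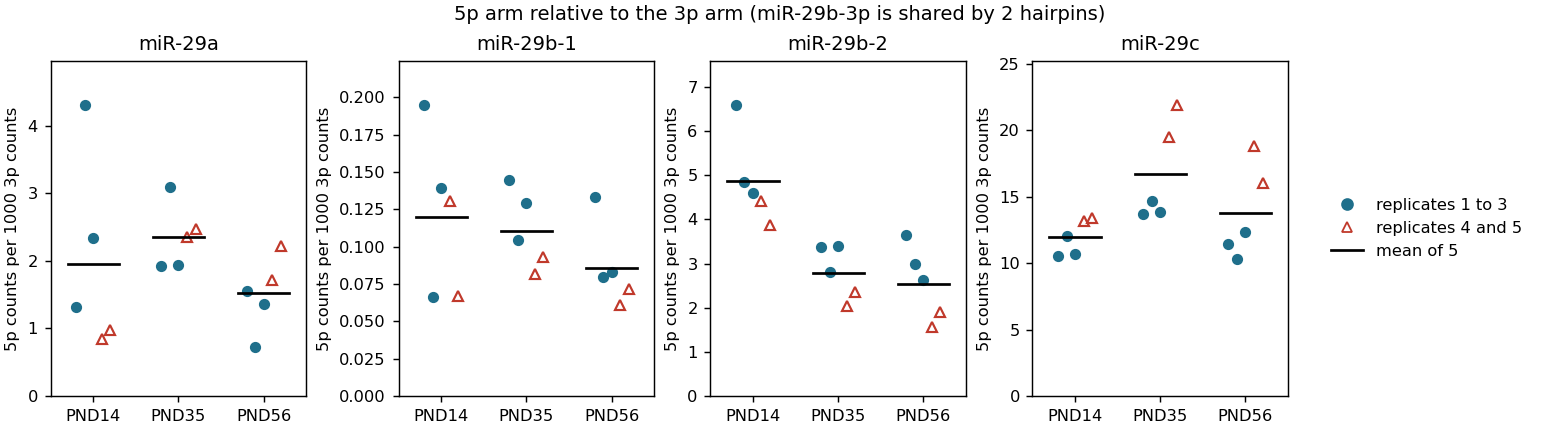
Each panel plots 5p counts per 1000 3p counts (y axis, from 0) by age for 1 miR-29 hairpin, with filled circles for replicates 1 to 3, open triangles for replicates 4 and 5 and bars for the mean of 5. For miR-29b-2 all PND14 libraries, at 3.88 or more, lie above all later ones, at 3.65 or less. The miR-29b-1 and miR-29b-2 panels share miR-29b-3p as denominator.

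The profiles most like the family's were sought among 445 other tested miRNAs with a mean of at least 10 CPM. Each log2 profile was centred on its own mean, and the root mean square difference from the mean profile of the 7 members was taken over the 15 libraries, which share depth and scaling. The closest was miR-34a-5p, the p53-induced member of another family, at 0.224 log2 units, beside a median of 0.994 over the candidates. It had 358 ± 74.5 CPM at PND14, 886 ± 84.7 at PND35 and 1106 ± 109 at PND56. It was followed by miR-3068-5p (0.310), miR-376b-5p (0.399), miR-23a-3p (0.402), miR-330-3p (0.404) and miR-30e-5p (0.435). The members themselves lay between 0.108 for miR-29c-5p and 0.517 for miR-29a-5p from their own mean profile, which they helped to set. This is a description of likeness over these libraries.

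Other miRNAs linked to the processes the family is known for were counted in the same edgeR fit. Both lists were chosen with earlier results of these data known, so their counts are a description. Over all tested miRNAs in that fit, 13.9% rose in the first interval and 1.70% from PND35 to PND56. Of 11 miRNAs linked to the extracellular matrix, 8 rose in the first interval (median log2 fold change 0.63), and 3 rose from PND35 to PND56. Several of these 11 belong to the miR-30 family and are not separate observations. The most abundant, let-7d-5p, rose by 0.46 ± 0.096 in the first interval (edgeR adjusted p = 0.00217), and miR-26b-5p had the smallest p over ages and rose by 0.82 ± 0.10 (edgeR adjusted p = 2.06e-05). Of 10 linked to DNA methylation and Polycomb proteins, 5 rose from PND14 to PND35 (median 0.42). From PND35 to PND56 0 of these 10 passed, with 2 at an edgeR unadjusted p below 0.05. miR-26a-5p, known to repress the Polycomb methyltransferase Ezh2, led this list in level and in p and rose by 0.64 ± 0.092 (edgeR adjusted p = 7.82e-05). Each of these named values was smaller than the smallest rise among the miR-29 members in that interval, 1.27, and the differences were not tested.

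Markers of cell types moved alongside, in a first interval where 13.9% of all tested miRNAs rose and 16.2% fell. The marker lists too were chosen with earlier results of these data known. Of 4 miRNAs that mark oligodendrocytes, the myelin-forming cells, all 4 rose in the first interval, and the median of their log2 fold changes was 1.91. The values ran from 0.72 for miR-219a-2-3p (2217 ± 1560 CPM at PND14, SD) to 3.84 for miR-219a-5p (8.29 ± 5.49 CPM at PND14). From PND35 to PND56 0 of the 4 passed, with 2 at an edgeR unadjusted p below 0.05. Their summed level was between 1423 and 5295 CPM at PND14, 6523 and 8468 CPM at PND35, and 7493 and 10127 CPM at PND56, and none was at 0 in any library. miR-338-3p, the most abundant of them at PND35 and PND56, had 724 ± 186, 4368 ± 691 and 5963 ± 881 CPM at the successive ages. Of 12 neuronal miRNAs 3 rose and 2 fell in the first interval. miR-9-5p, the most abundant, fell by 0.34 ± 0.079 (edgeR adjusted p = 0.00464), and miR-212-3p rose by 1.22 ± 0.15 (edgeR adjusted p = 1.95e-05). The neuronal sum lay between 217387 and 238069 CPM at PND14, 197260 and 222695 CPM at PND35, and 196485 and 235600 CPM at PND56, so the hypothalamic libraries held neuronal markers at each age.

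Of 5 vessel miRNAs 3 rose from PND14 to PND35, where 13.9% of all tested miRNAs rose and 16.2% fell. The vessel sums were 15282 to 25177 CPM at PND14 and 16520 to 28914 CPM at PND35. miR-126a-3p, the endothelial miRNA and the most abundant of them, had a log2 fold change of 0.0083 ± 0.13, and miR-145a-5p, known from smooth muscle, rose by 0.90 ± 0.16. Of 5 choroid plexus and cilia miRNAs 3 rose and 1, miR-449a-5p, fell by 2.06 ± 0.28, with sums of 2195 to 3025 CPM and 3269 to 3871 CPM. Of 4 erythroid miRNAs 1 rose (miR-451a, 0.81 ± 0.26), of 3 muscle miRNAs 1 rose (miR-1a-3p, 0.62 ± 0.13), and of 3 pituitary and sensory miRNAs 2 fell. None of 6 microglial and leukocyte miRNAs and none of 4 fibroblast and meningeal miRNAs passed in edgeR, with 1 and 0 at an unadjusted p below 0.05 and likewise 1 and 0 called by DESeq2. The part of any of these cell types in the miR-29 rise was not tested.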

How the data were processed

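Small RNA from 15 hypothalamus samples, 5 per age, was prepared with a QIAseq miRNA kit, per the labels' protocols. For each mature miRNA the authors deposited its raw count in each of the 15 libraries, as whole numbers without normalization. The submitters' processing notes name Trim Galore, Bowtie, DESeq2 and the build mm10, without versions or settings. Nothing says whether molecular identifiers were collapsed, so depth-based limits cover counting error only.

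Counts were tested with edgeR 4.0.16 (R 4.3.3): TMM, filterByExpr, the quasi-likelihood test with age and naming set as terms, 11 residual degrees of freedom, and Benjamini-Hochberg adjustment over 704 miRNAs, called below 0.05. Arm ratios were tested with limma 3.58.1 on log2 5p minus log2 3p counts (prior count 0.5) over 262 hairpins, and ratios between members with exact permutation tests. Both model fits were run on simulated counts with age changes and no difference between naming sets, so this does not check them under such a difference. Libraries held 6722608 to 16153673 counts, and no pair of libraries of the same age agreed within counting noise. Sequences are from RefSeq and gene overlaps from GENCODE, both GRCm38. Named miRNAs are the members, the 6 nearest profiles and, from each list, the most abundant miRNA and the one with the smallest p over ages, and the report gives them for the lists it describes in detail. The members and lists were chosen with earlier results of these data known. Alternatives were other scalings, filters, DESeq2 1.42.0, limma-voom, other terms, each naming set alone and each library left out. The interaction of age and naming set was added after seeing the data.

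Whether replicate numbers pair the samples is not stated. After removing age and naming set, same-numbered libraries correlated above 0.1 in 7 of 15 pairs. After removing age alone they did so in 13 of 15. No chance level was computed for these counts, so they cannot decide the pairing.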

Additional observations from a re-analysis of the deposited data

Results flagged for a closer look

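miR-29a-5p at PND56 had 1 library far from the others. Replicate 2 held 29.6 CPM, while the other 4 libraries lay between 52.4 and 60.4 CPM. Its gap to the nearest library was 0.740 of the whole range, above Dixon's 95% critical value for 5 samples. Among the 21 groups of 5 checked, chance alone flags about 1 in 20.

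The age change of miR-29a-3p differed between the naming sets. The interaction of age and naming set had an edgeR adjusted p of 0.00481, the only one among the 7 members below 0.05. In the same fit 25.6% of all tested miRNAs were called for it. From PND14 to PND35 replicates 1 to 3 gave a log2 fold change of 1.85, against 0.70 in replicates 4 and 5. At PND35 their mean was 24928 CPM, against 15422 CPM in replicates 4 and 5.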

How the results depend on the processing

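The rises from PND14 to PND35 and from PND14 to PND56 kept their direction and their call in all 174 alternative values computed for each, over the 7 members; miR-29b-1-5p was not tested under the 10 CPM filter. From PND35 to PND56 the count of members called, 2 as reported, was 0 without the naming-set term, 0 with the replicate block, 0 in replicates 1 to 3 alone and 4 in replicates 4 and 5 alone, and 0 to 3 with 1 library left out. The 3 members with unequal intervals became 5 with total counts and 5 with DESeq2, which gave no adjusted p for miR-29b-1-5p there, and 2 to 5 with 1 library left out. Without the naming-set term the call of miR-29b-3p was lost. In replicates 1 to 3 alone those of miR-29b-3p and miR-29b-1-5p were lost and that of miR-29a-3p was gained. In replicates 4 and 5 alone that of miR-29b-1-5p was lost, and those of miR-29a-5p and miR-29b-2-5p were gained. Total counts moved the median of all miRNAs by -0.16 from PND35 to PND56 and by -0.18 from PND14 to PND56. The 2 arm ratios called from PND14 to PND35 became 0 without the naming-set term, 1 with the replicate block, 0 in replicates 1 to 3 alone, 3 in replicates 4 and 5 alone, and 1 to 2 with 1 library left out. The 1 called from PND14 to PND56 became 2 with a prior count of 2 and 2 in replicates 4 and 5 alone, and 1 to 2 with 1 library left out. Shares of all tested miRNAs or hairpins called under these alternatives are not given here, so these counts show only how the calls moved. The cause was not tested.

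Values that changed sign were those of miR-29a-5p from PND35 to PND56 (-0.050 with total counts, -0.35 in replicates 1 to 3, and -0.078 to 0.25 with 1 library left out), of the interval difference of miR-29a-3p (0.18 in replicates 4 and 5), of the miR-29a arm ratio from PND14 to PND35 (-0.070 in replicates 1 to 3) and to PND56 (1.10 in replicates 4 and 5, and -0.42 to 0.17 with 1 library left out), and of the miR-29b-1 arm ratio from PND14 to PND35 (-0.32 to 0.036 with 1 library left out). Ratios between members that changed sign with 1 library left out were those of miR-29c-3p to miR-29a-3p from PND14 to PND35 (-0.18 to 0.023), of miR-29b-3p to miR-29a-3p (-0.37 to 0.037) and to miR-29c-3p (-0.17 to 0.28) from PND35 to PND56, and of miR-29c-5p to miR-29a-5p from PND14 to PND35 (-0.38 to 0.040), from PND35 to PND56 (-0.024 to 0.31) and from PND14 to PND56 (-0.19 to 0.23). Summed 3p and 5p levels moved by less than 1 SD under every alternative run.

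Under the replicate block the calls of miR-29a-3p and miR-29c-3p from PND35 to PND56 had an edgeR adjusted p of 0.0779 each, that of the miR-29c arm ratio a limma adjusted p of 0.0746, and no other call of a member or its arm ratio changed. The numbers were not taken to pair the samples, and 7 of 15 libraries correlated best with their own number. The exact tests of ratios with sign flips cannot go below 0.0625. Counts of miR-29b-1-5p, 2 to 27 in a library, limit its ratios.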
